A study of Saturnispora dispora and Saturnispora hagleri and Saturnispora mendoncae with 16 samples.

Results

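In the comparison of 4 *Saturnispora* yeasts, 145 of the 5029 orthogroups had values in *Sat. dispora* (Sdis), *Sat. hagleri* (Shag) and *Sat. mendoncae* (Smen) and none in *Sat. silvae* (Ssil). They were chosen by that pattern of presence alone, and no expression level entered the choice. By comparison, 4305 orthogroups had a gene in all 4 species, 152 lacked one only in Smen, 35 only in Sdis and 24 only in Shag. The strains were NRRL Y-1447 (Sdis), NRRL Y-27828 (Shag), NRRL Y-11515 (Smen) and NRRL Y-6725 (Ssil), so each species is represented by 1 strain. Each species was grown in 4 biological replicates in synthetic complete (SC) medium with 2% glucose, with RNA taken at 15 h from the species with a rapid extracellular acidification rate (rapid ECAR: Sdis and Shag) and at 18 h from those with low ECAR (Smen and Ssil). Because hour, ECAR class and species change together, a difference between Smen and the rapid ECAR species cannot be told apart from one of the hour.

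An orthogroup is the set of genes that descend from 1 gene of the last common ancestor of the species compared. An orthogroup without a gene in 1 species can come about by loss of the gene, by divergence beyond what the clustering of sequences recognises, or because the gene finder passed over the gene. In budding yeasts the order of genes along chromosomes is kept over long evolutionary times, so that the genes on either side show where a missing gene would be looked for. None of the tables used here pairs the orthogroups with gene names. The study's supplements do name 35 gene IDs, for 10 genes: the regulator GAL4 and genes of glycolysis, ethanol formation and sugar transport. All 35 were tied to orthogroups other than these 145. Members are therefore given by orthogroup ID, with no role.

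The 12 libraries of Sdis, Shag and Smen held from 8828330 to 13928456 counts in genes (median 11282262). Libraries of 1 species differed by more than counting error in every pair. Shag replicates 3 and 4 stood furthest from the other libraries of their species: over the members they deviated by 0.55 and 0.51 on the log2(TPM + 1) scale, where the other 10 libraries deviated by 0.11 to 0.25. Results that change without either are given with the value that replaces them.

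The median member had a lower level than the median orthogroup kept in all 4 species, in each of the 3 species that have the members. Levels are in TPM, a unit that divides counts by gene length and sums to the same total in each library. The median over members was 15.4 TPM in Sdis, against 33.8 TPM for the orthogroups in all 4 species. In Shag these medians were 26.5 and 46.4 TPM, and in Smen 27.9 and 43.4 TPM. The median over members varied little between libraries, with an SD (n = 4) of 0.865 TPM in Sdis and 0.744 TPM in Smen, but more in Shag, with an SD of 6.84 TPM. The 152 orthogroups missing only in Smen had median levels of 30.7 (Sdis) and 48.3 TPM (Shag), nearer to those of the orthogroups in all 4 species than the members were. The 35 missing only in Sdis had medians of 36.7 (Shag) and 30.1 TPM (Smen). The 24 missing only in Shag had 27.7 (Sdis) and 36.0 TPM (Smen). Both of these sets were thus also below the orthogroups in all 4 species.

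Lower did not mean silent. No member was at 0 in all libraries of a species. Between 10 and 100 TPM lay 76 members in Sdis, 88 in Shag and 86 in Smen. Under 1 TPM lay 8 members in Sdis, 8 in Shag and 6 in Smen. In each species 54 of the 145 (37.2%) were above the median of the orthogroups in all 4 species, 38 of them in all 3 species, while 73 were above it in none.

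**Figure D1:**
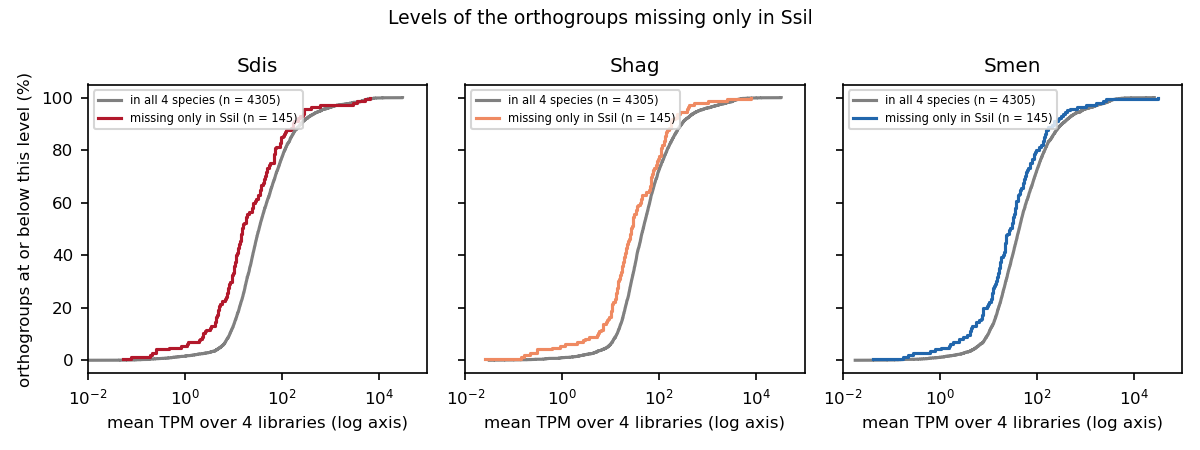
Share of orthogroups (vertical axis, %) at or below a given mean TPM over 4 libraries (horizontal log axis, values under 0.01 drawn at 0.01) in Sdis, Shag and Smen, for the 145 orthogroups missing only in Ssil (coloured) and the 4305 in all 4 species (grey). The coloured curve lies to the left of the grey one over most of the range, with medians of 15.4 against 33.8 TPM in Sdis.

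A single orthogroup, OG0004477, accounted for a large part of the members' transcripts. The members together held 2.50% to 2.53% of the TPM in the 4 Sdis libraries, 1.87% to 2.23% in Shag and 4.70% to 4.95% in Smen. It alone held 3.13% ± 0.124 (SD, n = 4) of the TPM in Smen, 0.654% ± 0.0412 in Sdis and 0.795% ± 0.138 in Shag. Without it the members held 1.86% in Sdis, 1.25% in Shag and 1.66% in Smen. That Sdis was highest here rested on OG0004381, with a mean of 2962 TPM in Sdis, 21.3 in Shag and 42.0 in Smen.

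OG0004477 was the most abundant of all orthogroups in Smen, where it is a single gene of 341 codons. The gene has 464 codons in Sdis and 508 in Shag, so division by length raises its Smen level relative to theirs. It had 30678, 31236, 30253 and 33066 TPM in the 4 Smen libraries. It had 6157, 6432, 7126 and 6446 TPM in Sdis, rank 20, and 7600, 8849, 6157 and 9193 TPM in Shag, rank 9. Every Smen library lay above every library of the other species, whereas Sdis and Shag overlapped. The difference between Smen and Sdis was 2.26 ± 0.12 (SE) on the log2(TPM + 1) scale (limma, adjusted p = 3.99e-09), and that between Smen and Shag 1.99 ± 0.12 (adjusted p = 1.46e-08). Under the alternatives in processing these ranged from 1.74 to 2.57 and from 1.43 to 2.13, and both stayed called. Shag was not called against Sdis, with a difference of 0.27 ± 0.12 (adjusted p = 0.0703). Without Shag replicate 3 that difference was 0.38 and was called (limma, adjusted p = 0.00342), while rescaling each library by its median ratio turned it to −0.17. It was 0.44 and called with quantile normalization (adjusted p = 0.000673), and 0.31 and called without division by gene length (adjusted p = 0.0208).

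OG0004608 ranked next in Sdis and Shag and is 1 gene of 190 or 191 codons in each species. Its TPM were 4895, 4989, 5190 and 5359 in Sdis, 2611, 2104, 3695 and 1654 in Shag, and 2173, 2201, 2295 and 2501 in Smen. All Sdis libraries were above all others, and the Shag libraries spanned those of Smen. It was lower in Shag than in Sdis by a log2 difference of −1.08 ± 0.19 (SE; limma, adjusted p = 0.000259) and lower in Smen than in Sdis by −1.16 ± 0.19 (adjusted p = 8.79e-05). Between Smen and Shag the difference was −0.07 ± 0.19 (adjusted p = 0.744), and 0.13 without Shag replicate 3.

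OG0001194 is a very short gene of 57 codons in Sdis and Smen and 2 genes of 141 codons together in Shag. Its levels were 3961, 3575, 3062 and 3822 TPM in Sdis, 1196, 913, 1292 and 614 in Shag, and 2563, 2759, 2894 and 2549 in Smen. The 3 groups did not overlap. Shag was lower than Sdis by −1.89 ± 0.19 (log2 difference ± SE; limma, adjusted p = 4.89e-06), and without division by gene length by −0.67 (adjusted p = 0.0113). Smen was above Shag by 1.48 ± 0.19 (adjusted p = 1.39e-05), but without division by gene length the difference was 0.19 (adjusted p = 0.442). Smen against Sdis gave −0.42 ± 0.19 (adjusted p = 0.0609), and its call depended on the processing. It was −0.77 and called with median-ratio rescaling (adjusted p = 0.0151), and −0.14 and not called with quantile normalization (adjusted p = 0.511). It was also called with edgeR, with DESeq2, without division by gene length, with only the 2 species in the fit, and without Sdis replicate 3, Shag replicate 3 or Shag replicate 4 (adjusted p from 0.000439 to 0.048).

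Apart from these 3, members at or above 1000 TPM were OG0004381 in Sdis and OG0000720 and OG0004411 in Smen. OG0004411, singled out after its values were seen, had 114 TPM ± 12.2 (SD, n = 4) in Sdis, 126 ± 47.3 in Shag and 1641 ± 86.4 in Smen.

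The next question was how the members differed between the species that have them. The 3 comparisons were Shag minus Sdis, Smen minus Sdis and Smen minus Shag, in 1 limma fit over the 4342 orthogroups with values in these species and a mean of at least 5 TPM. The comparisons share samples in pairs and are not independent. Of the 145 members, 133 were tested, and the other 12 had species means of at most 14.4 TPM.

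Relative to Sdis, Shag had 80 members higher (60.2%) and 22 lower (16.5%), and 31 were not called at an adjusted p under 0.05. Over all orthogroups tested, 54.9% were called higher and 16.1% lower in that comparison, so the members' shares stood near the background. Smen had 79 members higher than Sdis (59.4%) and 34 lower (25.6%), against 49.4% and 25.6% of all orthogroups. Smen had 53 members higher than Shag (39.8%) and 43 lower (32.3%), against 30.9% and 35.5% of all. The median member differed by 0.59 (all orthogroups 0.43), 0.57 (all 0.34) and −0.03 (all −0.06) in the 3 comparisons, on the log2(TPM + 1) scale.

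Much of the excess of higher calls relative to Sdis was common to all orthogroups. Rescaling by the median ratio shifted the median difference over all orthogroups by −0.42 (Shag minus Sdis), −0.34 (Smen minus Sdis) and 0.08 (Smen minus Shag). After it the members split into 53 higher and 37 lower for Shag minus Sdis, where all orthogroups had 32.9% in each direction. For Smen minus Sdis they split into 60 and 46 (background 38.3% and 38.5%), and for Smen minus Shag into 55 and 43 (background 36.1% and 34.5%). Relative to the median of all orthogroups tested, the median member lay higher by 0.16 in Shag minus Sdis, by 0.23 in Smen minus Sdis and by 0.03 in Smen minus Shag before rescaling, and by 0.16, 0.25 and 0.03 after it. With quantile normalization these values were 0.09, 0.23 and 0.01.

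**Figure D2:**
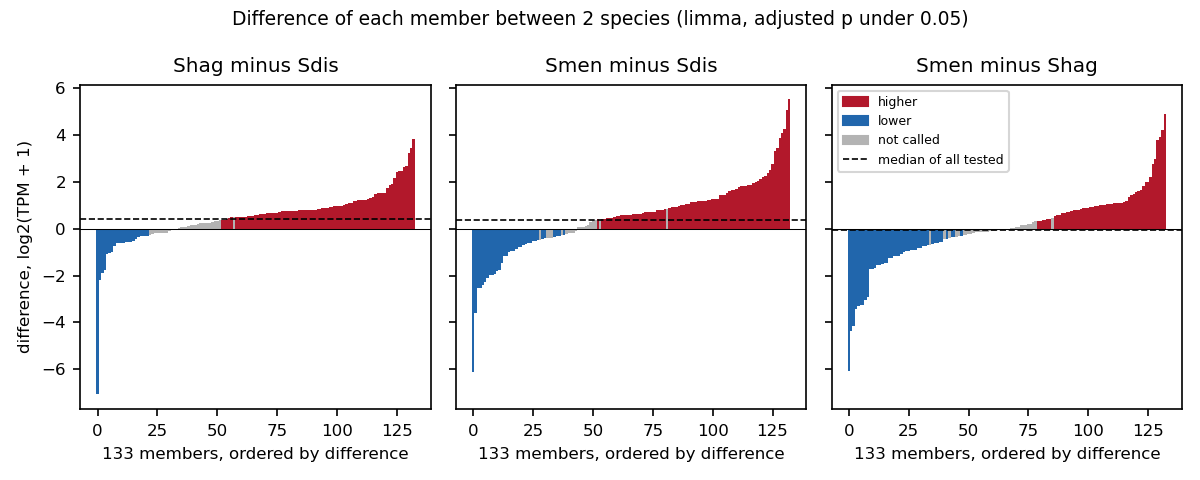
Difference of each of the 133 tested members between 2 species (vertical axis, log2(TPM + 1); members ordered by difference along the horizontal axis), with members called higher in red, lower in blue and not called in grey, and the median of all orthogroups tested as a dashed line. In Shag minus Sdis 80 members are red and 22 blue, and in Smen minus Shag 53 and 43.

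The sizes of the differences were wider among the members than among all orthogroups tested, in each comparison. The median absolute difference was 0.66 for members and 0.59 for all in Shag minus Sdis, 0.92 and 0.75 in Smen minus Sdis, and 0.84 and 0.60 in Smen minus Shag. More than 2-fold apart were 27.1% of members (all 20.7%), 45.9% (all 35.4%) and 38.3% (all 29.2%). From the lowest to the highest of the 3 species means, the median member spanned 1.23 on the log2 scale and the median orthogroup in all 4 species 1.02. The span was over 8-fold in 17 members (11.7%), against 4.16% of the orthogroups in all 4 species. It stayed within 2-fold in 49 members (33.8%), against 48.8%.

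Of the 133 members, 52 (39.1%) were called in all 3 comparisons and 76 (57.1%) in 2 of them, against 33.3% and 52.7% of all orthogroups tested. Only OG0004403, OG0004412 and OG0004553 were called in 1, and OG0004470 and OG0004540 in none, all of them picked out after their values were seen. OG0004540 had 73.3 TPM ± 22.9 (SD, n = 4) in Sdis, 85.9 ± 26.0 in Shag and 87.1 ± 3.51 in Smen. Smen had the highest mean for 64 of the 145 members (44.1%), Shag for 58 (40.0%) and Sdis for 23 (15.9%), near the 40.2%, 43.0% and 16.8% of the orthogroups in all 4 species. By order of the means, 45 of the 133 tested members had Smen above Shag above Sdis, 31 had Shag above Smen above Sdis, and 24 had Shag above Sdis above Smen, while the remaining orders held 6 to 14 members each. Sdis had the lowest mean for 83 members, which is 57.2% of them and compares with 52.6% of the orthogroups in all 4 species.

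The largest single difference concerned OG0004381, which was abundant in Sdis alone. Its TPM were 3066, 2949, 2953 and 2881 in Sdis, 18.2, 20.5, 23.3 and 23.2 in Shag, and 41.7, 45.9, 43.2 and 37.3 in Smen. The 3 groups did not overlap. Shag was lower than Sdis by −7.06 ± 0.09 and Smen lower than Sdis by −6.11 ± 0.09 (log2 difference ± SE; limma, adjusted p = 1.37e-14 and 4.33e-14). The gene has 531 codons in Sdis, 310 in Shag and 311 in Smen, so the Sdis gene is also the longest. In Shag it is g000147, next to g000148, a gene of glycolysis that the study's supplements name TPI. The orthogroup of g000148, OG0004382, was missing only in Sdis. Whether the Sdis gene of OG0004381 joins both genes, and so takes the counts of both, was not tested.

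OG0000720 was lowest in Shag. It had 600.0, 609, 619 and 635 TPM in Sdis, 127, 130.2, 151 and 123 in Shag, and 1027, 1056, 1109 and 1013 in Smen, with no overlap between species. Shag was lower than Sdis by −2.21 ± 0.08 (log2 difference ± SE; limma, adjusted p = 3.58e-10). It is a gene of 57 codons in Sdis and 56 in Smen but 2 adjacent genes of 154 codons together in Shag, and without division by length the difference was −0.86.

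Among members higher in Shag than in Sdis, OG0000003 and OG0004535 differed most. OG0000003 had 5.41, 4.99, 5.10 and 4.10 TPM in Sdis, between 0.0690 and 0.447 TPM in Smen, and 48.9, 157, 18.6 and 292.5 TPM in Shag. All Shag libraries were above all others although they spread widely, with replicate 4 highest and replicate 3 lowest. The log2 difference was 3.80 ± 0.61 (SE) between Shag and Sdis (limma, adjusted p = 0.000159) and −6.08 ± 0.61 between Smen and Shag (adjusted p = 1.33e-06). Without Shag replicate 3 or 4 these became 4.49 or 3.19, and −6.77 or −5.47. The genes of this orthogroup in Sdis and Shag could not be told from the counts.

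OG0004535 had 4.88, 5.10, 5.10 and 5.02 TPM in Sdis, 52.3, 70.6, 51.4 and 92.6 in Shag, and 65.0, 58.6, 65.3 and 64.9 in Smen. The Smen libraries lay inside the range of Shag, and both were above all of Sdis. Shag was above Sdis by 3.45 ± 0.16 (log2 difference ± SE; limma, adjusted p = 5.31e-09), and Smen differed from Shag by −0.03 ± 0.16 (adjusted p = 0.882).

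Members that stood out in Smen were OG0002171 and OG0004362, both higher there than in either rapid ECAR species. OG0002171 had 147, 143, 153 and 132 TPM in Smen, 8.81, 6.02, 5.94 and 6.79 in Shag, and 2.16, 1.32, 2.86 and 2.59 in Sdis. Smen was above Sdis by 5.51 ± 0.16 and above Shag by 4.21 ± 0.16 (log2 difference ± SE; limma, adjusted p = 1.39e-11 and 1.97e-10). OG0004362 had 49.0, 43.6, 48.2 and 43.3 TPM in Smen, at most 1.15 TPM in a Sdis library and at most 1.01 TPM in a Shag library. Its log2 differences were 5.05 ± 0.24 to Sdis and 4.90 ± 0.24 to Shag (limma, adjusted p = 9.40e-10 and 1.29e-09), on a scale on which the added 1 shrinks the change of so low a gene. With 5 added they were 3.22 and 3.18. For both orthogroups the 4 Smen libraries lay above all others.

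OG0000024 and OG0004725 were lowest in Smen. OG0000024 had 17.0, 16.5, 11.97 and 13.5 TPM in Sdis, 10.7, 14.3, 8.99 and 18.7 in Shag, and 0.365, 0.443, 0.223 and 0.115 in Smen. Sdis and Shag overlapped, and all of Smen lay below. The difference between Smen and Sdis was −3.61 ± 0.20 (log2 difference ± SE; limma, adjusted p = 4.36e-09). It had 2 genes of 250 codons together in Sdis and 3 genes of 774 codons together in Smen. With 5 in place of 1 added to the TPM, the difference was −1.89. OG0004725 had 64.4, 83.3, 48.6 and 90.5 TPM in Shag, 18.8, 16.8, 21.4 and 17.3 in Sdis, and 2.14, 2.77, 3.67 and 1.39 in Smen, with no overlap between species. Smen was lower than Shag by −4.38 ± 0.22 (limma, adjusted p = 1.71e-09).

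Exact two-sided permutation tests of TPM, 4 libraries against 4, cannot give a p below 0.0286, which is what any 2 groups without overlap give. For the differences of the 3 most abundant members that limma did not call, the exact p was 0.114 for OG0004477 between Shag and Sdis, 0.743 for OG0004608 between Smen and Shag, and 0.0286 for OG0001194 between Smen and Sdis.

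**Figure D3:**
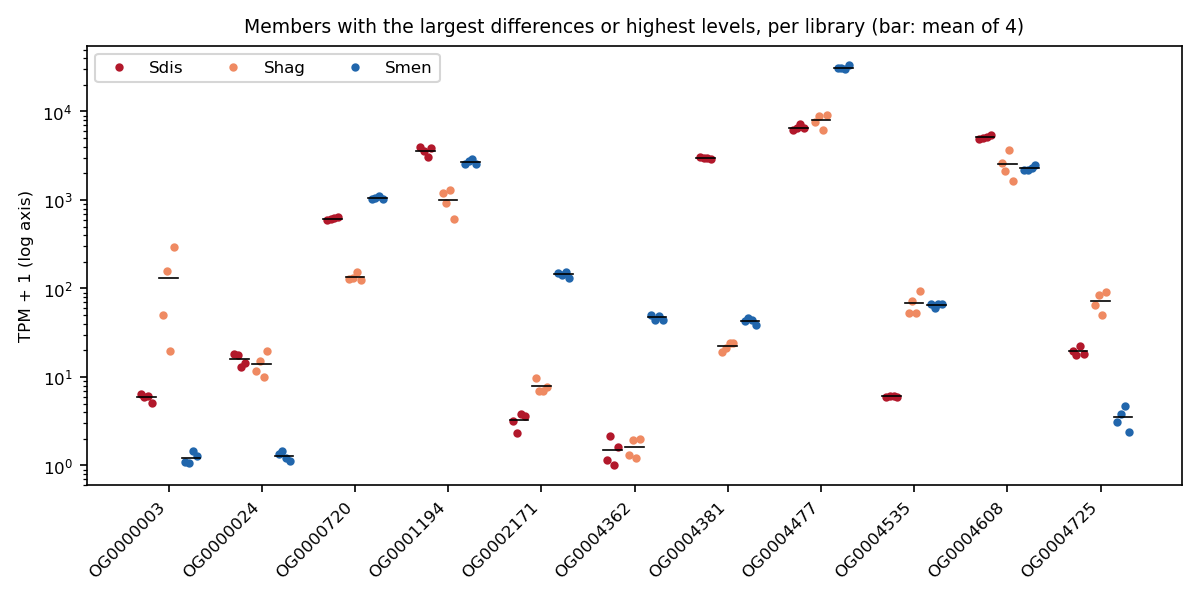
TPM + 1 (vertical log axis) of the 11 members with the largest differences or the highest levels, 1 point per library in Sdis, Shag and Smen and a bar at the mean of 4. OG0004477 reaches 33066 TPM in Smen, and OG0004381 lies between 2881 and 3066 TPM in Sdis and at or below 45.9 TPM in the other species.

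Measures that the choice of members did not use concern the genes themselves. Genes were tied to orthogroups by their proportions over the 4 libraries of a species, which gave a gene ID and a coding length for 142 members in Sdis, 140 in Shag and 142 in Smen. Most members were single genes: 137 in Sdis, 135 in Shag and 140 in Smen. These are 96.5%, 96.4% and 97.2% of the members tied to genes, near the 98.0%, 97.4% and 97.1% of the orthogroups in all 4 species. The member with the most genes, OG0000001, had 4 in Sdis and 1 in Smen, at mean levels of 3.48 and 1.53 TPM.

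The members' genes were shorter than those of the orthogroups in all 4 species. Their median length was 314.5 codons in Sdis, 312 in Shag and 296.5 in Smen, whereas the median of the orthogroups in all 4 species was 427, 427 and 421 codons. Under 150 codons were 16.9% of members in Sdis, 17.1% in Shag and 19.7% in Smen, against 6.69%, 6.80% and 7.29%. The orthogroups missing in 1 of the other species had shorter medians still. Those missing only in Smen had 224.5 codons in Sdis and 228 in Shag. Those missing only in Sdis had 279 in Shag and 242 in Smen, and those missing only in Shag 240.5 in Sdis and 240 in Smen.

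By the median, short members had higher levels than longer ones, which was not compared with the orthogroups in all 4 species. In Sdis the 24 members under 150 codons had a median of 40.9 TPM and the 118 longer ones 14.3 TPM. In Shag the medians were 40.2 and 25.6 TPM, and in Smen 70.1 and 22.4 TPM. Length also varied more between species: among the 129 members with 1 gene in each of the 3 species, the longest was within 1.1 times the shortest in 87 (67.4%), against 82.5% of the orthogroups in all 4 species. The ratio was above 1.5 in OG0004356, OG0004381, OG0004577 and OG0004647, which were picked out after their lengths were seen.

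Gene IDs carry a number that follows the order of genes. Of pairs of single genes with neighbouring numbers in 1 species, 90.6% to 97.9% were also neighbours in another. It was therefore possible to ask what lies in Ssil at the place where a member would be expected, between the Ssil genes of the orthogroups that flank it in another species. As a check, 98.5% to 98.9% of genes kept in all 4 species lay between their own flanks in Ssil.

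For most members that could be placed, the flanks in Ssil had no gene between them. Placed by Sdis, 77 of 123 members (62.6%) had no gene there, as had 77 of 127 (60.6%) placed by Shag and 85 of 125 (68.0%) placed by Smen. For 70 members all 3 species gave that answer, and 11 members were placed by none. Those 70 had median levels of 15.6 TPM in Sdis, 26.0 in Shag and 29.5 in Smen, close to the medians of all members. A further 9 to 12 had only genes that lie there in the other species too. A gene whose orthogroup does not lie between the flanks in the species used for placing was found at 22, 23 and 13 places. These include genes that lie right beside a flank in that species. A gene tied to no orthogroup lay at 15, 15 and 15 places.

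The same was done for the orthogroups missing in 1 of the other species. A gene tied to no orthogroup lay between the flanks of 12.2%, 11.8% and 12% of members placed by Sdis, Shag and Smen, but of 2.19%, 2.16% and 3.68% of the orthogroups missing only in Smen placed by Sdis, Shag and Ssil. For those missing only in Sdis the shares were 5.88% to 6.67%, of 30 to 34 placed, and for those missing only in Shag 4.17% to 8.33%, of 24 placed. No gene lay there for 83.2%, 82.0% and 72.1% of the orthogroups missing only in Smen. These shares were not tested, and Ssil had 228 genes tied to no orthogroup and Smen 146. The files cannot tell a gene that is absent from a genome from one that its annotation left out.

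**Figure D4:**
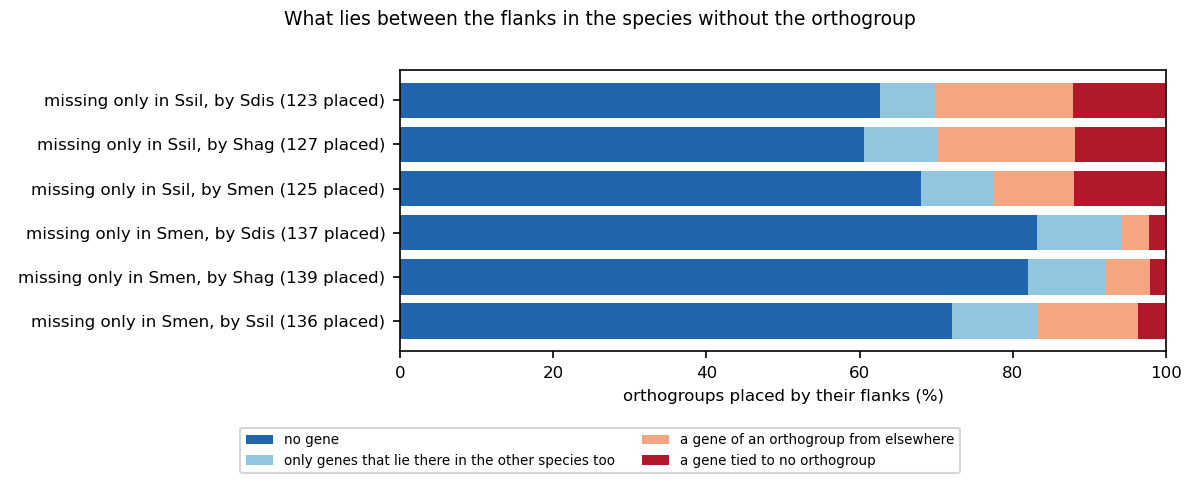
What lies between the flanking genes in the species without the orthogroup, as a share (%) of the orthogroups that could be placed, for those missing only in Ssil (upper 3 bars) and only in Smen (lower 3 bars), by the species used to place them. A gene of an orthogroup from elsewhere is one whose orthogroup lies outside the flanks in the species used for placing, also right beside them. No gene lies between the flanks for 60.6% to 68.0% of the placed members in Ssil.

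The place of OG0004477 was one of those with a gene. In all 3 species it lay between OG0002498 and OG0002499, and in Ssil the genes of these, g003872 and g003870, enclosed only g003871, which was tied to no orthogroup. This gene had 174, 206, 131 and 67 counts in the 4 Ssil libraries, a mean of 0.0014% of the counts in genes. The gene of OG0004477 took 1.004% of counts in Sdis, 1.25% in Shag and 3.36% in Smen. Shares of counts are not per length, and the length of g003871 was not found, so the levels were not compared. Over the 14 Ssil genes found at the places of 16 members, the highest mean share was 0.0207%, at OG0004411. By share of counts, again not per length, 5 of these 16 members lay above the Ssil gene at their place in all 3 species, and 6 in none.

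Some members lay next to each other. Within 3 gene numbers of another member in at least 2 species were 25 of the 145 (17.2%), in 14 pairs, 12 of which were neighbours in all 3 species. For the orthogroups missing only in Smen the same count was 32 of 152 (21.1%).

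The longest run held 5 members, OG0004312, OG0004646, OG0004313, OG0004647 and OG0004314, in that order in each species. It covered g004453 to g004464 in Sdis, g000914 to g000925 in Shag and g001905 to g001915 in Smen, where the 5 lie among 6 orthogroups that Ssil kept. In Sdis and Shag the run also held OG0004648, which was in neither the Smen nor the Ssil stretch. In Ssil these 6 had consecutive numbers, g003122 to g003127, with no number left over between them. At the end beyond OG0004312 the order of Ssil parted from that of the other species, so that OG0004312 could not be placed, and between the flanks of OG0004314 lay the gene of OG0000504, whose order with OG0000503 is reversed in Ssil.

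The 5 neighbours were not expressed alike. OG0004314 had 71.5 TPM ± 6.38 (SD, n = 4) in Sdis, 163 ± 55.4 in Shag and 79.3 ± 5.78 in Smen. It was higher in Shag than in Sdis by 1.11 ± 0.21 (log2 difference ± SE; limma, adjusted p = 0.000494). OG0004647 instead was highest in Smen, with 53.4 TPM ± 4.42 against 19.2 ± 1.32 in Sdis and 26.1 ± 4.52 in Shag, and its difference between Smen and Sdis was 1.43 ± 0.12 (adjusted p = 3.28e-07). Its gene has 146 codons in Smen and 257 and 258 in Sdis and Shag.

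The other 3 were low in all species. OG0004646 had 10.9 TPM ± 3.11 in Sdis, 25.9 ± 5.20 in Shag and 7.18 ± 1.498 in Smen, and was lower in Smen than in Shag by −1.72 ± 0.21 (log2 difference ± SE; limma, adjusted p = 7.80e-06). OG0004313 had 13.5 TPM ± 2.87 in Sdis, 20.1 ± 5.48 in Shag and 11.7 ± 0.857 in Smen. OG0004312, the longest at 1060 codons in Sdis and 831 in Smen, had 9.30 TPM ± 0.931, 13.9 ± 3.32 and 12.5 ± 0.802. Over the 12 pairs of members that were neighbours in all 3 species, the levels of the partners differed by a median of 1.67 in Sdis, 1.68 in Shag and 0.94 in Smen on the log2(TPM + 1) scale. These gaps were not compared with those of members that are not neighbours.

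**Figure D5:**
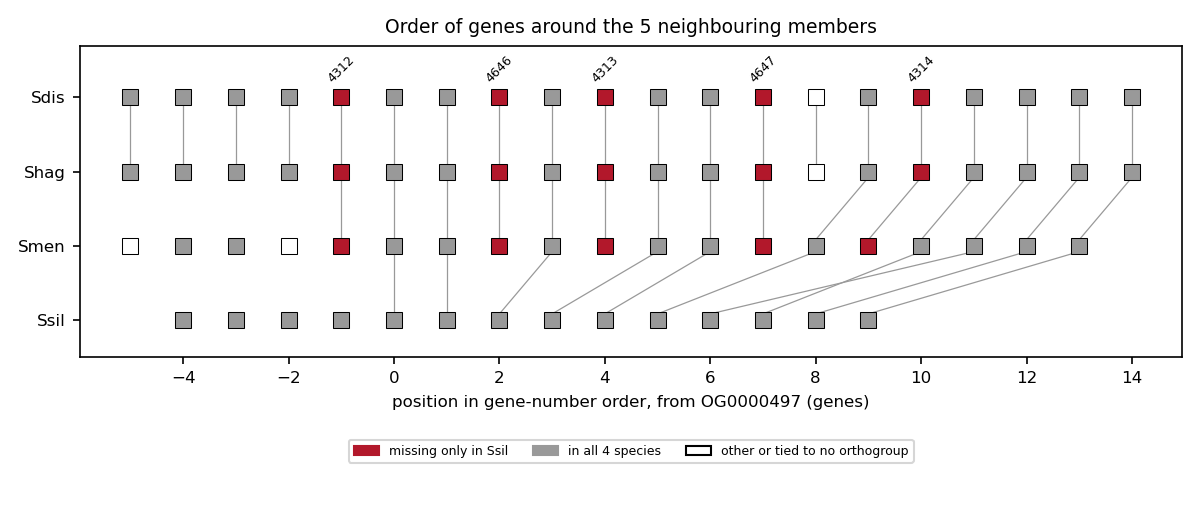
Order of genes around the 5 neighbouring members in Sdis, Shag, Smen and Ssil by gene number, as positions from OG0000497, with members in red (last 4 digits of their IDs above), orthogroups in all 4 species in grey, and other genes in white; lines join the same orthogroup, and Sdis is drawn in reverse. The 6 grey genes that lie among the red ones stand side by side in Ssil.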

How the data were processed

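Poly(A) RNA of 16 cultures (4 biological replicates of 4 species) was sequenced, and per the labels the reads were processed with Trimmomatic 0.30, HISAT2 2.1.0 and HTSeq 2.0.3; genome builds are not given in the sources used here. The expected counts per gene were deposited by the authors, who split ambiguous read pairs into fractions in HTSeq. The TPM were computed by the authors with edgeR from counts and lengths summed over each orthogroup; a species that lacks an orthogroup is listed as NA. Reads without a gene (4.10% to 10.9% of the total in the 12 libraries of Sdis, Shag and Smen) were left out.

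limma 3.58.1 (R 4.3.3, variance trend, Benjamini-Hochberg over 4342 orthogroups) tested log2(TPM + 1) where the mean TPM was at least 5, so p-values measure the spread between the 4 replicates. Genes were tied to orthogroups where counts and TPM had equal proportions over 4 libraries to within 1e-08, with sums of up to 4 genes, and lengths were whole codons for over 99% of genes. Members were placed by the nearest tied single genes within 5 gene numbers on each side, at most 15 apart in Ssil. Calculations used Python 3.11.15 and were tested on simulated data. Expected counts were rounded for edgeR 4.0.16 and DESeq2 1.42.0, the alternatives. Others were pseudocounts, filters, rescaling, single-copy members, a replicate block and leaving out each library.

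The members and all lists were chosen with earlier results of these data known. Named were the 2 members higher and the 2 lower with the largest differences per comparison, the 3 highest per species, the one with the most genes and the longest run of neighbours; no member had a named gene or was at 0 throughout a species.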

Additional observations from a re-analysis of the deposited data

Results flagged for a closer look

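Over the 54 sets of 4 libraries looked at (named members and TPM shares, per species), 1 had a library far from its others, where chance gives about 1 in 20. OG0004535 had 58.65 TPM in Smen replicate 2 and 65.0, 65.3 and 64.9 TPM in the others, a gap of 0.951 of the range.

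In Ssil, which has no value for the members, g002341, a gene tied to no orthogroup, took 6.73%, 6.81%, 6.42% and 6.31% of the counts in genes in replicates 1 to 4, a mean of 6.57%. It did not lie at the place of any member, and the orthogroups tied to Ssil genes carried 99.8% of the TPM there.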

How the results depend on the processing

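The counts of members called depended mainly on scaling. For Shag minus Sdis, 80 higher and 22 lower members became 53 and 37 with median-ratio rescaling, 52 and 40 with quantile normalization, 53 and 34 with edgeR and 52 and 36 with DESeq2. A minimum mean of 20 TPM, which leaves 85 members, gave 50 higher members for Shag minus Sdis, 50 for Smen minus Sdis, and 33 higher and 25 lower for Smen minus Shag. Without 1 library each, higher and lower members ranged from 71 to 86 and 18 to 22 (Shag minus Sdis), 71 to 82 and 30 to 37 (Smen minus Sdis), and 47 to 55 and 41 to 49 (Smen minus Shag). Median TPM then ranged from 15.6 to 15.9 (Sdis), 23.8 to 27.7 (Shag) and 27.4 to 28.3 (Smen), and shares of TPM from 2.51% to 2.52%, 1.99% to 2.11% and 4.74% to 4.82%. With the 129 single-copy members the shares were 2.03%, 1.83% and 4.30% and the Smen median 31.1 TPM. Without OG0004477, an alternative chosen after seeing the data, the shares were 1.86%, 1.25% and 1.66%.

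Of 21 differences of single members, 17 kept direction and call under every alternative. OG0004477, Shag minus Sdis, turned to −0.17 with rescaling, −0.14 with edgeR and −0.17 with DESeq2. OG0004608, Smen minus Shag, turned from −0.07 to 0.0112 with rescaling and ranged from −0.25 to 0.13 without 1 library each.

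Replicate numbers do not pair the samples: correlations of deviations were −0.339 to 0.374 for same-numbered libraries of 2 species and −0.555 to 0.50 for others. With a replicate block, 79 and 21, 80 and 32, and 51 and 43 members were called higher and lower in the 3 comparisons. Members without a tied gene could not be tested with edgeR or DESeq2, which covered 128 members.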
